A study of Mus musculus with 6 samples.

Results

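Zinc and manganese handling was followed through 10 mouse genes, the transporters Slc30a10, Slc30a1, Slc30a5, Slc30a7, Slc30a9, Slc39a14, Slc39a8 and Slc39a4 and the metallothioneins Mt1 and Mt2. They were chosen by gene symbol, as every probe set annotated to one of these genes alone, which gave 18 of the 45101 probe sets on the array. The gene list was drawn up with earlier results of the same comparison known. The differences between genotypes given for the 10 genes are therefore descriptions, with no p-value for any of them. All 18 probe sets passed the filter on low signal, a mean log2 signal of at least 5.50 over the arrays, and all 10 genes were among the 12598 genes compared.

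The livers came from 3 ChLO and 3 WT male mice, 1 array per mouse. ChLO mice carry a floxed Chrebp gene, now named Mlxipl, together with a Cre transgene that the albumin promoter drives in hepatocytes. WT mice are called wild type in the labels, and neither the strain nor the presence of floxed alleles or Cre in them is given in the sources used here. At 12 weeks of age both groups were given a 60% sucrose diet for 1 week, and the comparison asks how loss of ChREBP, the carbohydrate-responsive transcription factor of the liver, alters transcripts under a sugar load. Mlxipl itself had log2 signals of 10.34, 11.22 and 11.48 in ChLO 1, 2 and 3, against 12.61, 12.56 and 12.59 in WT 1, 2 and 3. Its signal was lower in every ChLO liver but still far above the filter level.

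Transporters of the SLC30 family (ZnT proteins) move metal out of the cytosol, across the cell surface or into organelles, and those of the SLC39 family (ZIP proteins) move it in. The liver governs the body's manganese: Slc39a14 (ZIP14) brings manganese into hepatocytes from the blood, Slc30a10 (ZnT10) exports it, in hepatocytes into bile, and Slc39a8 (ZIP8) takes it back up from bile. In humans, inherited loss of SLC30A10 causes manganese overload. Metallothioneins are small cysteine-rich proteins that hold zinc and copper, and their genes are switched on by zinc through the factor MTF-1, encoded by Mtf1, as well as by glucocorticoids, inflammation and cell stress.

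The promoters of the 3 genes with the largest differences are shown first, because MTF-1 is known to act through metal response elements near the start of metallothionein genes. Each sequence runs from 250 bases before to 30 bases after the gene's start in RefSeq on mouse build GRCm38.p6, on the plus strand. Capitals mark matches on either strand to the core of the metal response element, searched as TGCACNC and TGCGCNC. Slc30a10 lies at chr1:185454598-185454877, Mt1 at chr8:94178839-94179118 and Mt2 at chr8:94172368-94172647.
Slc30a10: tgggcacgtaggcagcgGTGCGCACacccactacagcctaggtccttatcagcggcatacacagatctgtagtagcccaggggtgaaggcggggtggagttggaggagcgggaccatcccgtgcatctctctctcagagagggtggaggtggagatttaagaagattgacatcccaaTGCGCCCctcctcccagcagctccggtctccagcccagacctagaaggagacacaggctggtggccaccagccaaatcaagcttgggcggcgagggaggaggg
Mt1: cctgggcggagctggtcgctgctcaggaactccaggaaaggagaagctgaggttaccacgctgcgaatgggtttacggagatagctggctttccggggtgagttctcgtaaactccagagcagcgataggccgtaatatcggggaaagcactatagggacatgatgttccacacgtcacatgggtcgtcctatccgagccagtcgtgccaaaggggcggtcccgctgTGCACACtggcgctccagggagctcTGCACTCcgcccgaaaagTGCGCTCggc
Mt2: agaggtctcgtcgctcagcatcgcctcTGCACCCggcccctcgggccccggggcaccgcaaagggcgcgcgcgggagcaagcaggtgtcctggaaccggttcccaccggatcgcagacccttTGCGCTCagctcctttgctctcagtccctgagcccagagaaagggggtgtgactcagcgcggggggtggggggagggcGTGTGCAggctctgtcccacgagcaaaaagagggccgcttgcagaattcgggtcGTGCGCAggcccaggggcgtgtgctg

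The Mt2 window held matches in 4 separate places, that of Mt1 in 3 and that of Slc30a10 in 2, one of which matched on both strands. Among all 32851 promoter windows of this length, 24.1% held at least 1 such place, 5.43% at least 2 and 1.13% at least 3. In Mt2 the matches began 223, 128 and 50 bases before the start and 5 bases after it, and in Mt1 they began 23 bases before and 3 and 21 bases after it. For Mt1 the RefSeq gene record of the same build starts 206 bases upstream of the start used here. These Mt1 distances and its window therefore hold for the start used alone, while for Slc30a10 and Mt2 both starts were the same. Which Mt1 start the liver uses was not tested, and bases more than 30 after the start used were not searched. The 3 places in Mt1 therefore cannot be set against the 4 in Mt2. Mt2 and Mt1 are neighbours on chromosome 8, with 0 other genes listed between them in RefSeq. Promoters were found for 8 of the 10 genes. The window of Slc30a1 and that of Slc30a5 held 1 match each, and 1 of the 2 windows of Slc39a8 did. The carbohydrate response element to which ChREBP binds was searched by its consensus. It was in none of the 9 windows of these 8 genes and in 0.113% of all windows. The E-box CACGTG is only 1 of the forms that either end of this element can take. The E-box was in the window of Slc30a5, in 1 of the 2 windows of Slc39a8 and in 6.79% of all. A match of letters is a description of the sequence and not evidence of binding, and sites outside these windows were not searched.

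On the brightest probe set of each gene, the manganese exporter Slc30a10 in ChLO livers had a signal 5.90-fold lower than in WT livers, whereas Mt1 and Mt2 had signals 9.59-fold and 8.89-fold higher. For all 3 genes each ChLO liver lay, on that probe set, outside the range of the WT livers. With Slc30a7, which was higher by a small margin, this held for 4 of the 10 genes, against 15.2% of all genes compared, a share from which nothing is read because the genes were chosen with this comparison in view. The other 7 transporters differed by at most 0.27 on the log2 scale, less than 1.21-fold in either direction. Over all 10 genes, 4 had a higher mean in ChLO and 6 a lower one, where the median difference of all genes compared was 0.06 and 56.5% had a higher mean in ChLO.

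Slc30a10 was read by a pair of probe sets. On 1439934_at, the brighter one, log2 signals were 6.36, 7.29 and 7.09 in ChLO 1, 2 and 3, against 9.36, 9.83 and 9.24 in WT 1, 2 and 3. The means were 6.92 ± 0.49 in ChLO and 9.48 ± 0.31 in WT (SD, n = 3 each), a difference of -2.56 (SE 0.31). The highest ChLO liver thus lay well below the lowest WT liver, and the gap between the groups was wider than the spread within either. The second probe set, 1438751_at, read 5.47, 6.48 and 7.00 in ChLO livers, against 9.28, 9.68 and 9.03 in WT livers, a difference of -3.01 (SE 0.40) or 8.07-fold lower. Both probe sets placed ChLO 1 lowest and WT 2 highest. With any 1 array left out, the difference on the brighter probe set stayed between -2.75 and -2.28.

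Mt1 was also read by a pair of probe sets, which differed in brightness. On 1422557_s_at the log2 signals were 14.63, 13.87 and 13.31 in ChLO 1, 2 and 3, against 9.66, 10.83 and 11.53 in WT 1, 2 and 3. The means were 13.94 ± 0.67 in ChLO and 10.68 ± 0.94 in WT (SD, n = 3 each), a difference of 3.26 (SE 0.50). Every ChLO liver lay above every WT liver there. The dimmer probe set, 1451612_at, read 9.46, 9.65 and 6.66 in ChLO livers, against 5.69, 6.16 and 7.34 in WT livers, a difference of 2.20 (SE 0.79) or 4.58-fold higher. On that probe set the groups overlapped, because ChLO 3 lay below WT 3. The suffix of the brighter probe set marks that it can match several transcripts, so its signal need not come from Mt1 alone.

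Mt2 had 1 probe set, 1428942_at, with log2 signals of 13.93, 12.00 and 10.66 in ChLO 1, 2 and 3, against 8.31, 9.47 and 9.35 in WT 1, 2 and 3. The means were 12.19 ± 1.64 in ChLO and 9.04 ± 0.64 in WT (SD, n = 3 each), a difference of 3.15 (SE 0.74). The groups did not overlap, but the ChLO livers were spread over more than 3 log2 units, and the size of the difference depended on which of them were counted. It was 2.29 without ChLO 1 and 3.92 without ChLO 3. Mt1, on its brighter probe set only, and Mt2 ranked the ChLO livers alike, with ChLO 1 highest and ChLO 3 lowest, and both were lowest in WT 1 among the WT livers.

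**Figure D1:**
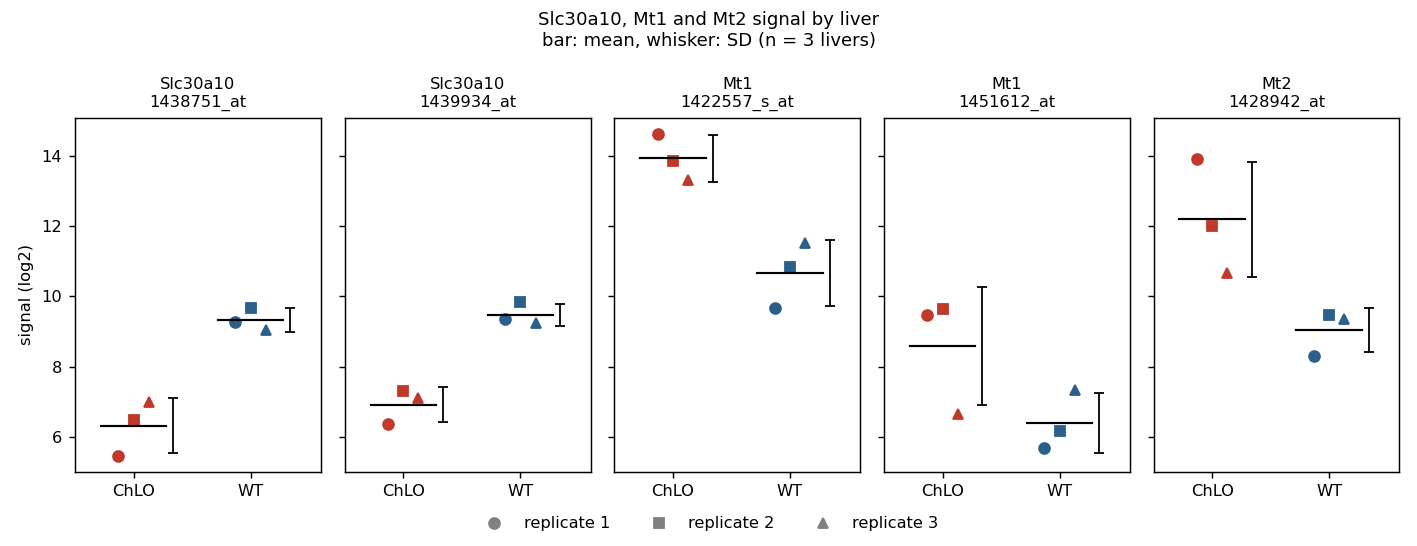
Log2 signal (vertical axis) of the 5 probe sets of Slc30a10, Mt1 and Mt2 in each liver, with ChLO in red and WT in blue, marker shape giving the replicate, horizontal bars the mean and whiskers the SD of 3 livers. The ChLO livers lie below all WT livers for both Slc30a10 probe sets and above them for Mt2 and the brighter Mt1 probe set, while on 1451612_at ChLO 3 at 6.66 lies below WT 3 at 7.34.

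By count, 1 of the 10 genes was lower in ChLO with no overlap between the groups, against 6.19% of all genes compared, and 3 were higher with no overlap, against 9.04% of all. A log2 difference of at least 1 in size was seen for 3 of the 10 and for 6.79% of all genes. In the limma fit across all genes, 0 of the 10 passed an adjusted p of 0.05, as did 0 of 12598 genes or 0%, and 3 had an unadjusted p under 0.05, against 8.96% of all genes. Without ChLO 3 limma called 3 of the 10 (Slc30a10, Mt1 and Mt2), against 2.40% of all genes. Over probe sets, 0 of the 18 passed, against 0.0296% of 27022, and 5 had an unadjusted p under 0.05, against 8.02% of all. The Slc30a10 probe set 1439934_at passed with quantile normalization, with equal array medians and with the replicate block, against 0.0407%, 0.0296% and 0.0629% of all, and at an adjusted p of 0.10 in the limma fits over probe sets and over genes, against 0.0481% and 0.111%. All 5 probe sets of Slc30a10, Mt1 and Mt2 passed without ChLO 3 and with array weights, against 1.40% and 5.77% of all. Array weights also called these 3 genes in the gene fit, against 4.51% of all genes. Nothing is read from these shares either.

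For the remaining manganese transporters the genotypes differed by less than the spread between livers. Slc39a14, the importer on the blood side of hepatocytes, was read by 4 probe sets. The brightest, 1427035_at, gave log2 signals of 12.00, 11.63 and 11.51 in ChLO 1, 2 and 3, against 11.63, 11.64 and 11.92 in WT 1, 2 and 3, a difference of -0.02 (SE 0.19). The groups overlapped on all 4 probe sets, whose differences ranged from -0.46 to 0.17 with SEs of 0.19 to 0.61. The largest of these came from the dim probe set 1457770_at, where ChLO 3 alone was low at 5.89, against 7.87 and 8.14 in ChLO 1 and 2.

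Slc39a8, which reclaims manganese from bile, read 10.61, 10.27 and 10.72 in ChLO livers, against 10.66, 10.55 and 10.65 in WT livers on 1416832_at, a log2 difference of -0.09 (SE 0.18). Its second probe set differed by -0.27 (SE 0.25). ChLO livers lay on both sides of the WT livers on the first probe set and partly below them on the second, so the exporter Slc30a10 was the 1 gene of these 3 manganese transporters whose groups were apart.

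Among the zinc exporters, Slc30a1 (ZnT1) sits at the cell surface and is, like the metallothioneins, a known target of MTF-1. Its log2 signals on 1436164_at were 10.83, 11.04 and 10.85 in ChLO 1, 2 and 3, against 11.55, 10.94 and 11.05 in WT 1, 2 and 3, a difference of -0.27 (SE 0.20). Its second probe set differed by -0.23 (SE 0.22). The Slc30a1 groups overlapped on both probe sets. On 1436164_at the difference was -0.09 without WT 1, the highest liver. The part of MTF-1 in the Slc30a1 signal was not tested.

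Slc30a5 and Slc30a7 load zinc into the early secretory pathway. Slc30a5 read 11.11, 11.28 and 11.14 in ChLO livers, against 11.05, 10.90 and 11.25 in WT livers, a log2 difference of 0.11 (SE 0.16) with overlapping groups. Slc30a7 read 10.15, 10.02 and 10.15 in ChLO livers, against 9.81, 9.86 and 10.02 in WT livers on 1435717_at, a log2 difference of 0.21 (SE 0.16). These groups did not overlap, but by a margin smaller than 0.01 log2 units between ChLO 2 and WT 3, and they overlapped after quantile normalization, with equal array medians and with the mean of its probe sets. On the second Slc30a7 probe set the difference was 0.12 (SE 0.29), with ChLO 3 lowest at 8.90 and ChLO 1 highest at 10.02.

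Slc30a9, a transporter of the mitochondrial membrane, read 11.50, 11.36 and 11.58 in ChLO livers, against 11.80, 11.45 and 11.49 in WT livers, a log2 difference of -0.10 (SE 0.17). Slc39a4 (ZIP4), best known as the zinc importer of the intestine, read 11.39, 10.77 and 10.11 in ChLO livers, against 12.13, 10.33 and 10.61 in WT livers, a log2 difference of -0.27 (SE 0.50). On the probe sets that stood for each gene, Slc39a4 varied most among the 7 transporters other than Slc30a10, and its difference changed to 0.29 without WT 1 and to 0.06 without ChLO 3. Neither gene separated the genotypes.

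**Figure D2:**
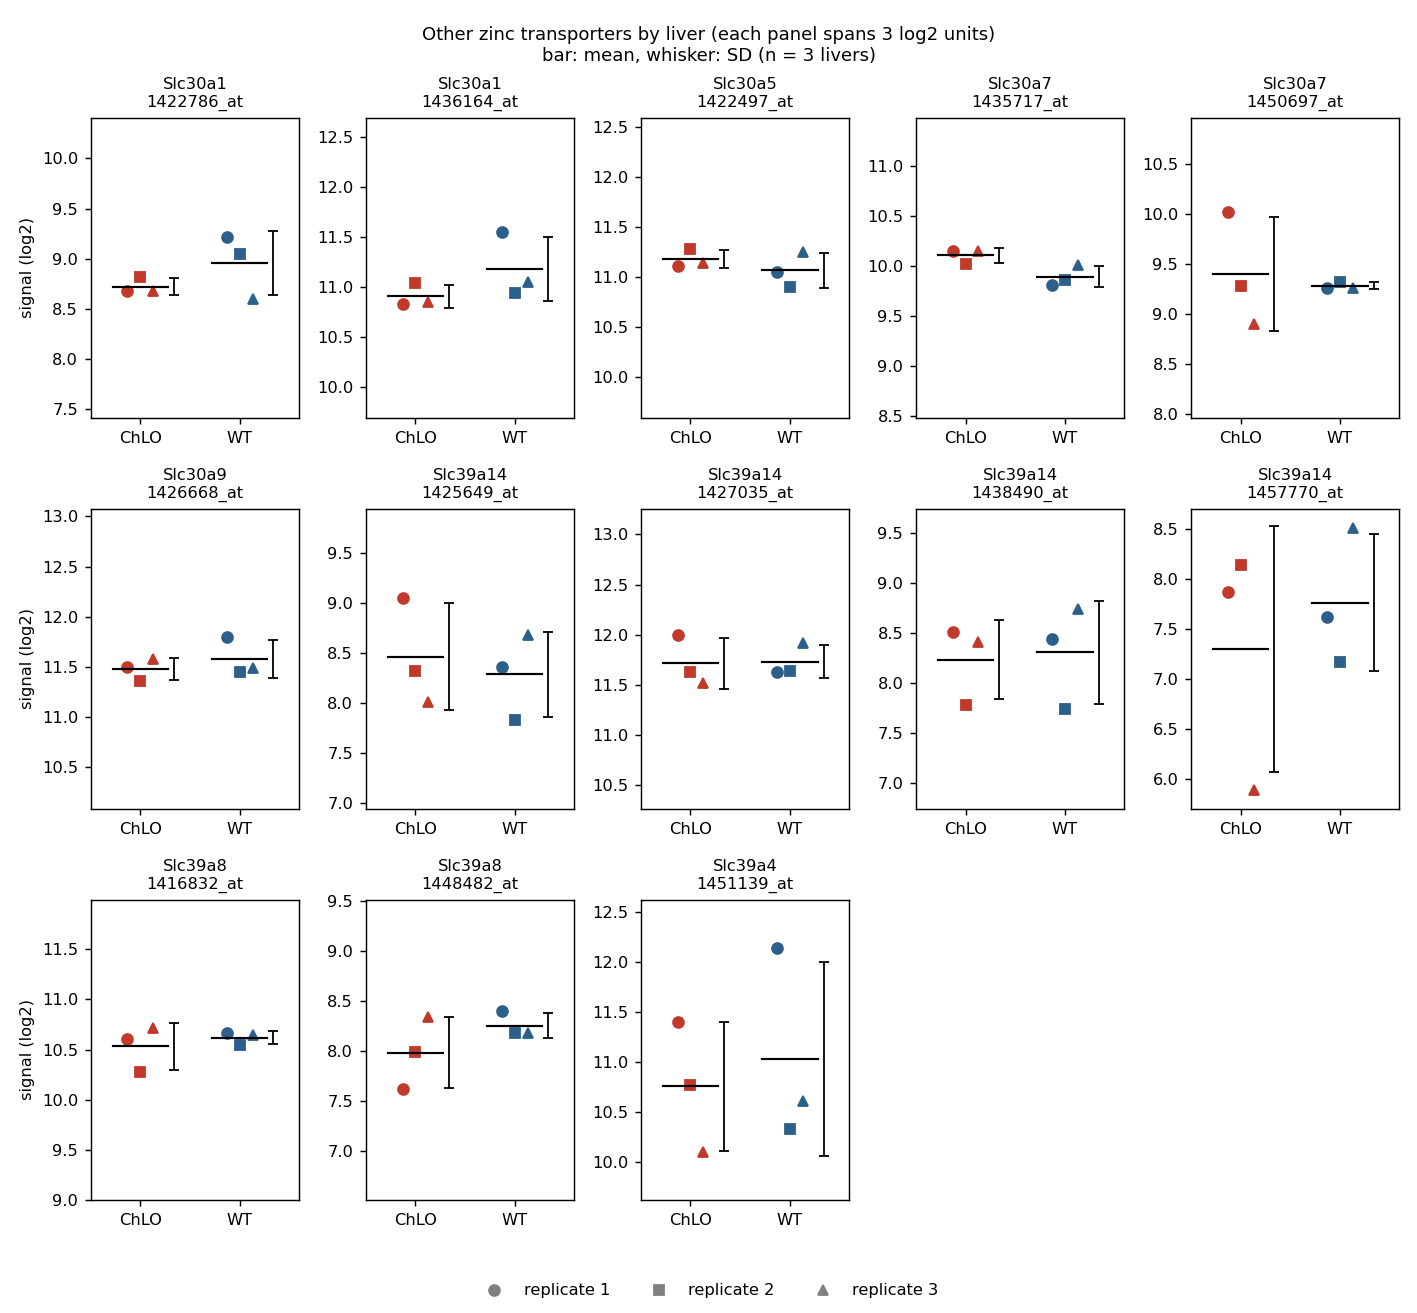
Log2 signal (vertical axis, 3 log2 units in every panel) of the 13 probe sets of the other 7 transporters in each liver, ChLO in red and WT in blue, with the mean as a bar and the SD of 3 livers as a whisker. The groups overlap in every panel but that of Slc30a7 on 1435717_at, where ChLO 2 at 10.02 lies just above WT 3.

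**Figure D3:**
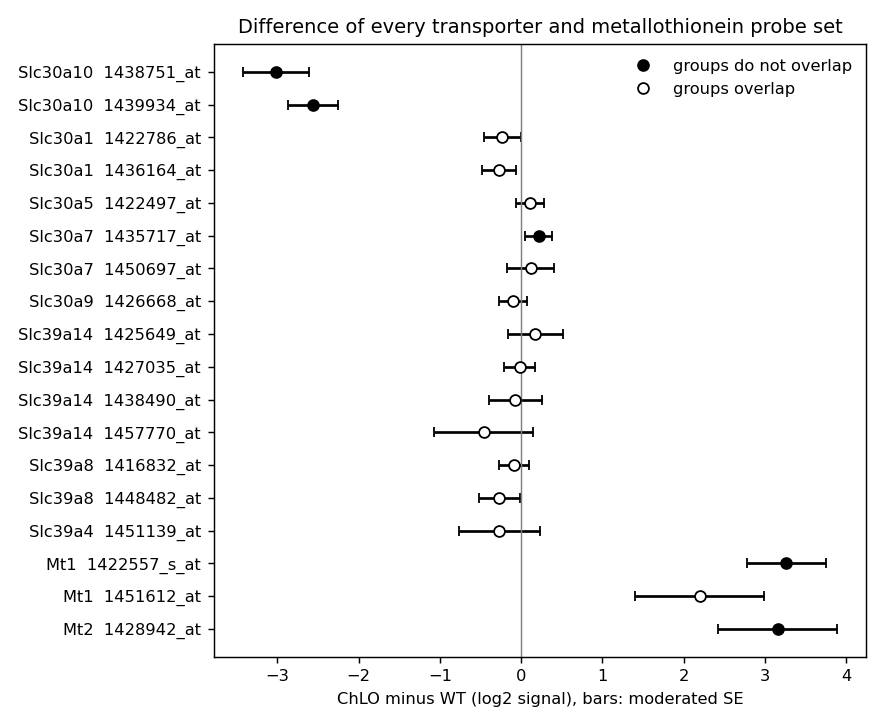
Difference ChLO minus WT in log2 signal (horizontal axis) for the 18 probe sets, with bars for the moderated SE of the limma fit over all probe sets and filled points where the groups do not overlap. Slc30a10 at -3.01 and -2.56 and the metallothioneins at 2.20 to 3.26 stand apart from the other transporters, which lie between -0.46 and 0.21.

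The rest of the pathway was described from fixed lists, read against the counts over all genes given above, with 0 list genes past an adjusted p of 0.05 in limma. Of 5 further SLC30 genes 3 were compared, all 3 with a higher mean in ChLO, a median difference of 0.18 and 0 at an unadjusted p under 0.05. Slc30a4, a zinc transporter of endosomes, read 11.05, 9.96 and 9.63 in ChLO livers, against 9.56, 9.39 and 9.48 in WT livers, a log2 difference of 0.74 (SE 0.34). Its groups did not overlap, with ChLO 1 far above the rest. Slc30a6, the partner of Slc30a5, differed by 0.18 (SE 0.18) and Slc30a3, the zinc transporter of synaptic vesicles, by 0.09 (SE 0.76).

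Of 11 further SLC39 genes 9 were compared, 8 with a higher mean in ChLO, a median difference of 0.09 and 0 at an unadjusted p under 0.05. Their groups overlapped for all 9. Slc39a1, an importer of the cell surface, differed by 0.43 (SE 0.25), Slc39a6 by 0.36 (SE 0.56) and Slc39a7, which releases zinc from the endoplasmic reticulum, by 0.13 (SE 0.30), all on the log2 scale. Mtf1 read 9.03, 8.86 and 8.96 in ChLO livers, against 8.43, 9.23 and 8.76 in WT livers, a log2 difference of 0.14 (SE 0.24). Mt3 and Mt4 were below the filter level and were not compared. The groups of Mtf1 overlapped, and the part of MTF-1 in the Mt1 and Mt2 differences was not tested.

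Among 14 genes of other divalent metal and copper transport, 7 were higher and 7 lower, with a median difference of 0.05 and 0 at an unadjusted p under 0.05. Slc40a1, the iron exporter ferroportin, differed by -0.42 (SE 0.18) with no overlap between groups. Atox1, a copper chaperone, differed by 0.40 (SE 0.23) and Tmem165, a transporter of the Golgi linked to manganese, by 0.48 (SE 0.29), both with overlap. Among 12 enzymes that carry zinc or manganese, 4 were higher and 8 lower, with a median of -0.20 and 1 lower at an unadjusted p under 0.05. That was pyruvate carboxylase, Pcx, at -0.91 (SE 0.16), with no overlap between groups. With Pcx, 3 of the 12 were lower in ChLO with no overlap, against 6.19% of all genes compared. Car5a, a mitochondrial carbonic anhydrase, differed by -0.93 (SE 0.48) and Arg1, the manganese enzyme arginase, by -0.51 (SE 0.27), both with overlap.

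Lists of signals known to induce metallothioneins were read liver by liver, as the median difference from the WT mean. For 8 genes of the integrated stress response the medians were 2.57, 1.72 and 0.50 in ChLO 1, 2 and 3, against 0.16, -0.29 and -0.05 in WT 1, 2 and 3. All 8 had a higher mean in ChLO, 6 of them at an unadjusted p under 0.05 in limma, against 8.96% of all genes. Nupr1 differed by 3.79 (SE 1.10), Trib3 by 2.04 (SE 0.62) and Atf3 by 3.29 (SE 1.07), and the groups of Trib3 alone of these did not overlap. Nupr1 had a WT mean of 5.10, below the filter level of 5.50. It passed only through its ChLO livers, so its direction was set by the filter. The counts and medians of this list include Nupr1. The part of the stress response in the metallothionein signals was not tested.

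For the glucocorticoid response the medians over 8 genes were -0.32, 0.02 and -0.24 in ChLO 1, 2 and 3, against -0.10, -0.01 and 0.10 in WT, and 2 genes were higher and 6 lower. Zbtb16 differed by -0.63 (SE 0.24) and Dusp1 by 0.59 (SE 0.29), each with no overlap between groups, and Tat by -0.36 (SE 0.22). Acute phase genes were mixed, with medians over 18 genes of 0.20, -0.20 and -0.20 in ChLO livers, against -0.06, -0.17 and 0.23 in WT livers. At an unadjusted p under 0.05, 3 were higher and 2 lower. Lcn2, which encodes lipocalin 2, read 13.25, 11.44 and 9.50 in ChLO livers, against 9.33, 8.90 and 8.12 in WT livers, a log2 difference of 2.61 (SE 0.83), with no overlap between groups. Cebpd differed by 1.05 (SE 0.34) and Orm1 by -0.58 (SE 0.16), both with no overlap. For the unfolded protein response the medians over 10 genes were 0.27, 0.16 and -0.44 in ChLO livers, against 0.09, -0.20 and 0.24 in WT livers, with 0 genes at an unadjusted p under 0.05. Dnajb9, Hsp90b1 and Pdia4 differed by 0.28, -0.18 and -0.21 with overlapping groups.

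**Figure D4:**
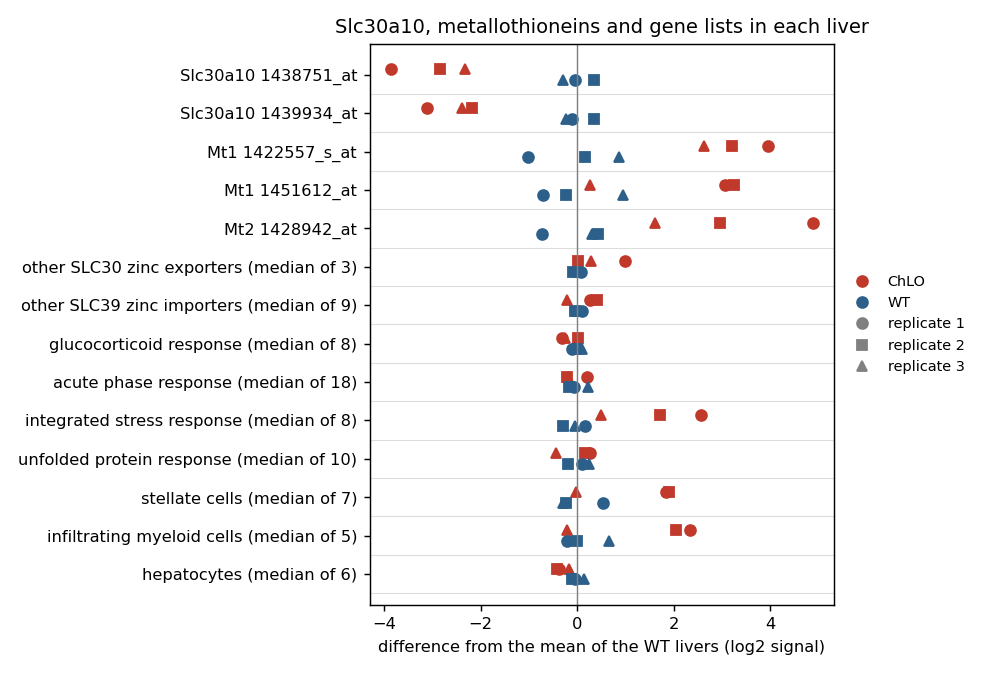
Difference from the mean of the WT livers in log2 signal (horizontal axis) for the 5 probe sets of Slc30a10, Mt1 and Mt2 and as the median over each gene list, 1 point per liver, ChLO in red and WT in blue. The stress response median is 2.57, 1.72 and 0.50 in ChLO 1, 2 and 3, the stellate and myeloid medians of ChLO 3 are -0.03 and -0.22, and on 1451612_at the ChLO 3 point of Mt1, at 0.26, lies among the WT livers.

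These are whole livers, in which fewer cells of a type and less RNA per cell cannot be told apart. Hepatocyte markers were high in all livers, with Alb at 15.52, 15.31 and 15.67 in ChLO livers, against 15.69, 15.52 and 15.85 in WT livers, and Apoa1 at 15.94, 15.77 and 16.05 in ChLO livers, against 16.18, 16.11 and 16.35 in WT livers. All 6 hepatocyte markers were lower in ChLO, with a median difference of -0.33. Their summed linear signal was 220292 to 276866 in ChLO and 284355 to 327755 in WT. All 7 stellate cell markers were higher, with a summed linear signal of 2916 to 14464 in ChLO and 2484 to 5055 in WT, and so were all 5 markers of infiltrating myeloid cells that were compared, with 2132 to 10987 in ChLO and 2422 to 2801 in WT. Their medians in ChLO 1, 2 and 3 were 1.85, 1.91 and -0.03 for stellate cells and 2.33, 2.04 and -0.22 for myeloid cells, against -0.30 to 0.53 and -0.21 to 0.67 in WT. A myeloid marker with a WT mean of 3.66, below the filter level, passed only through its ChLO livers, so its direction was set by the filter. The count, sums and medians of the myeloid list include this marker. In ChLO 3, where the stellate median lay within the range of the WT livers and the myeloid median just below it, the difference from the WT mean was -2.38 and -2.33 on the Slc30a10 probe sets and 1.62 for Mt2. For Mt1 it was 2.63 on 1422557_s_at but 0.26 on 1451612_at, where ChLO 3 lay within the range of the WT livers. The part of hepatocytes, stellate cells and myeloid cells in the Slc30a10, Mt1 and Mt2 differences was not tested. Medians of Kupffer cell markers were -0.26, 0.44 and -0.13 in ChLO 1, 2 and 3, on both sides of the WT livers, and those of endothelial markers 0.04, 0.30 and -0.11, against -0.12 to 0.11 in WT. Those of 5 cholangiocyte markers, 4 with a higher mean in ChLO and 1 with a lower one, were 0.65, 0.80 and 0.41 in ChLO and -0.34 to 0.19 in WT. A cholangiocyte marker with a WT mean of 5.38, below the filter level, passed only through its ChLO livers, and others had WT means near that level. The counts and medians of the cholangiocyte list include this marker. Lymphocyte, pancreatic acinar and enterocyte markers gave 1, 1 and 2 genes above the filter level, too few to read. No marker signal can be called 0 on this scale.

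Over the 6 livers, the 5 genes whose log2 signal ran most alike with Slc30a10 among the other 12588 genes were Gapdhs, Pnpla6, Stard4, Slc2a2 and Hes6, with Pearson's r of 0.997, 0.988, 0.985, 0.984 and 0.983. For Mt1 they were Spcs1, Ifit3, Snrnp27, Micu2 and Tcf12, with r of 0.997, 0.992, 0.991, 0.989 and 0.989. These are descriptions over 6 points that form separate genotype groups, chosen as the highest of many.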

How the data were processed

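Liver RNA of 6 mice was hybridized to Affymetrix 3′ expression arrays. The authors deposited log2 signals for 45101 probe sets. The submitters' processing notes name MAS5, Affymetrix's single-array summary, without a version. The log2 scale was read from the deposited values, whose linear mean after trimming 2% from each end was 500 on each array. Scaling of this kind would not show a change shared by most transcripts. Array medians ran from 6.38 to 6.60 log2 units, and arrays correlated at 0.894 to 0.954 over the genes compared. The number of arrays limits the precision.

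Probe sets were named through the platform annotation, 34945 of them with 1 gene symbol, 932 with several and 9160 with none. After 64 control probe sets, those below the 40th percentile of mean signal were left out, which kept 27022. For a gene with several, the brightest by mean over the 6 arrays stood for the gene, whatever the group. ChLO and WT were compared with limma 3.58.1 in R 4.3.3 (lmFit, eBayes with a trend), over genes and over probe sets, with Benjamini-Hochberg adjustment over all features. A difference is ChLO minus WT, SE is limma's moderated SE, and SE of a second probe set comes from the fit over probe sets. The fit was tested on simulated data. The genes and lists were chosen with earlier results of these data known. Named genes of the pathway lists are up to 3 per list with the largest moderated t, named hepatocyte markers are Alb and Apoa1, other marker lists are given by medians and sums, and the metallothionein and transporter genes are all named.

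Alternatives were other normalizations, filters, variance models and probe set choices, the replicate block, another threshold and leaving out each array. Promoters are those of RefSeq. Protein sequences were not used here.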

Additional observations from a re-analysis of the deposited data

How the results depend on the processing

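Slc30a10 stayed lower and Mt1 and Mt2 higher in ChLO under all 17 settings tried. The other filters, eBayes without a trend, robust eBayes and the replicate block left every difference of the 10 genes unaltered by construction. These settings therefore do not bear on the size of a difference. The differences ran from -2.79 to -2.26 for Slc30a10, from 2.20 to 3.69 for Mt1 and from 2.29 to 3.92 for Mt2. The Mt1 value of 2.20 came from leaving out probe sets of several transcripts, which leaves its dim probe set, and there the groups overlapped. Of 170 recomputed differences of the 10 genes, 165 moved by less than 1 SD, a count that includes all those unaltered by construction. In 11 the sign changed, all of Slc30a9, Slc39a14, Slc39a8 or Slc39a4. Spike-in scaling shifted the median difference of all genes to 0.31, and there Slc30a5 was 0.36, Slc30a7 0.46, Slc30a9 0.15, Slc39a8 0.16, Slc39a14 0.23 and Slc30a1 -0.02.

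The limma counts over all features depended on the settings, and the cause was not tested. Over genes, in place of 0, they were 3 with no filter, 568 with array weights (an estimate that stopped before converging), 1 with the replicate block and 14 at an adjusted p of 0.10. Leaving out 1 array gave 0 to 302, with 4 without ChLO 1 and 302 without ChLO 3. Over probe sets, in place of 8, they were 0 with spike-in scaling, without a trend or without probe sets of several transcripts, 1560 with array weights, 17 with the replicate block and 13 at an adjusted p of 0.10. Leaving out 1 array gave 0 to 378, with 378 without ChLO 3. Deviations of same-numbered arrays correlated at 0.30, -0.17 and 0.06 for replicates 1, 2 and 3, so no pairing was assumed. In this balanced design the block cannot alter a difference. With it 1 of the 18 probe sets passed in place of 0, the Slc30a10 probe set 1439934_at, against 0.0629% of all. Array weights gave 3 of the 10 genes and 5 of the 18 probe sets in place of 0, against 4.51% and 5.77% of all. Nothing is read from these counts, because the genes were chosen with this comparison known. With 3 arrays per group, dim probe sets such as that of Mt1 limit what can be said.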
